A study of Bos taurus with 12 samples.

Results

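Glucose is broken down in the cytosol by glycolysis to pyruvate, which is either reduced to lactate or passed into mitochondria. The pentose phosphate pathway branches off after the first step of glycolysis and yields NADPH and ribose. In mitochondria the pyruvate dehydrogenase complex turns pyruvate into acetyl-CoA, which the tricarboxylic acid (TCA) cycle oxidises. Cartilage has no blood vessels, and its chondrocytes are known to draw most of their ATP from glycolysis to lactate.

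The enzymes of these routes were chosen by gene symbol, 43 genes in all, and every probe set that the platform's annotation gives one of these symbols was taken. Of the 43 genes, 39 had a probe set on the array, out of 9155 named genes. They were read by 65 probe sets, 3 of them GAPDH controls, so that 62 of the 24016 tested probe sets belonged to them. HK2, IDH3B, DLST and MDH1 had no probe set under their symbol or gene identifier. Of the 39 genes, 25 had 1 probe set and 14 had several. A gene with several is described by the one with the highest mean log2 signal, and the others are named with their values beside it.

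RNA came from growth plate chondrocytes of male dairy cattle under 10 months old, taken at the distal end of the metacarpus. Collagenase P released the cells in 4 hours, and density centrifugation then parted them, with the lightest fraction taken as hypertrophic zone (HZ) and the heaviest as reserve zone (RZ) cells. Hypertrophic chondrocytes are the enlarged cells that prepare the matrix for bone formation, and reserve zone chondrocytes are the slowly dividing precursors. The 6 HZ and 6 RZ samples form 6 numbered pairs, hybridised to 1 array each. No treatment or genetic change was applied, and the labels do not say whether a pair is 1 animal, so each p-value reflects how much these pairs varied and no more.

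Values are signals recovered from deposited ratios, on a scale where every array's median is 96.7. Differences are HZ minus RZ on the scale of log2(signal + 16), which understates the change of dim probe sets, and "rose" or "fell" means an adjusted p under 0.05 in limma with the pair as a block. Levels of different genes are not compared, since probe sets differ in how well they bind. Both fractions are bulk samples, so fewer cells of a type and less RNA per cell cannot be told apart. The number of arrays limits the precision, and the standard error of the 39 log2 differences lay between 0.13 and 0.31.

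Of the 39 genes, 5 fell in HZ and 0 rose. Those that fell were HK1, PFKP and PKM, whose products act at the 3 steps of glycolysis that are practically irreversible, PGAM1 of lower glycolysis, and PDK4, a kinase that switches the pyruvate dehydrogenase complex off. Other genes of these steps did not fall. PFKL and PFKM gave -0.10 and 0.02, HK3 and ADPGK of a wider list gave -0.03 and -0.14, and HK2 was not measured. PKM and PGAM1 each passed in 1 of the 6 fits that left out 1 pair. By probe set, 7 of 62 fell, with PDK4 counted at its 3 probe sets. Over all probe sets 2.96% fell and 3.26% rose, 6.22% together. Over the brightest probe sets of named genes 3.56% fell and 4.17% rose, 7.73% together. At an unadjusted p under 0.05, limma counted 12 of the 62 as lower and 5 as higher, against 11.8% and 10.4% of all probe sets. The median log2 difference of the 39 genes was -0.10, and that of all named genes was -0.01. In 29 of the 39 genes (74.4%) the difference was negative, beside 51.1% of all named genes. In 9 genes (23.1%) it was negative in all 6 pairs, while 1 gene, SUCLG1, was higher in HZ in all 6 (2.56%). Of all named genes 8.27% were lower and 8.60% higher in all 6 pairs, and of all probe sets 7.15% and 6.85%. The enzyme genes were mostly bright, with 38 of 39 at a mean signal of at least 64. Among the 7013 named genes at or above that signal 4.42% fell and 53.1% had a negative difference. In all 6 pairs 10.1% of them were lower and 9.98% higher. The enzyme genes were chosen with earlier results of these data known, so setting them beside these shares is not an independent test.

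**Figure D1:**
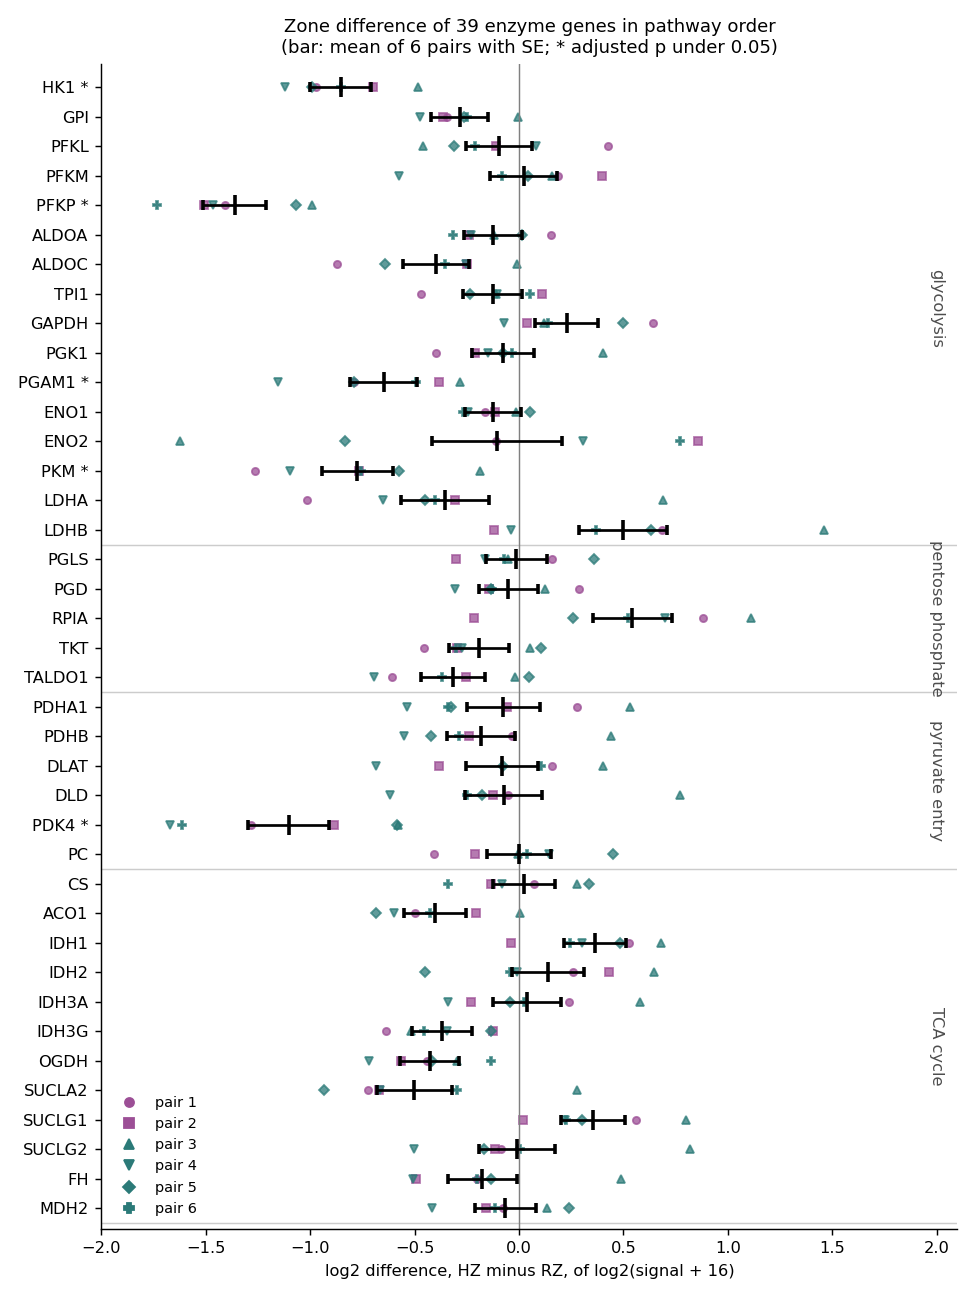
Log2 difference, HZ minus RZ, of each of the 39 genes in pathway order from top to bottom. Coloured symbols are the 6 pairs, and black bars give the mean with its standard error. PFKP, PDK4, HK1, PKM and PGAM1, marked with a star, lie to the left of 0 in all 6 pairs, and most other genes straddle 0.

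At the entry of glycolysis, hexokinase traps glucose in the cell as glucose 6-phosphate. HK1, which encodes the hexokinase of most tissues, had a signal of 662 at the lowest, 1205 at the median and 2019.5 at the highest on HZ arrays, against 1086, 2185 and 3659 on RZ arrays. The zones overlapped at the RZ arrays of pairs 1 and 2, which were the lowest in RZ, and in each pair the HZ array was the lower one. HK1 fell by 0.85 ± 0.14 (SE, n = 6 pairs, limma adjusted p = 0.0111), a 1.81-fold lower level. Pairs 1 and 2 gave -0.84, and pairs 3 to 6 gave -0.86. With any 1 pair left out it stayed between -0.93 and -0.80 and passed. The next enzyme, the isomerase GPI, gave -0.28 ± 0.14 (SE, adjusted p = 0.26), lower in HZ in 6 of 6 pairs without passing.

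Phosphofructokinase commits glucose to glycolysis and works as a tetramer of subunits from 3 genes, named for liver, muscle and platelet. The platelet subunit PFKP had signals of 106, 213 and 302 (lowest, median, highest) in HZ and of 307, 557 and 820.5 in RZ. Every HZ array lay below every RZ array, although the highest HZ array, that of pair 3, came within a few units of the lowest RZ array, that of pair 1. PFKP fell by 1.36 ± 0.15 (SE, limma adjusted p = 0.0020), a 2.57-fold lower level, with pairs ranging from -1.73 to -0.99. This was the largest fall among the 39 genes, and it passed without any 1 of the pairs. Pairs 1 and 2 gave -1.46. Pairs 3 to 6 gave -1.31 and sufficed for a pass on their own (adjusted p = 0.0319), the 1 such case among the 62 probe sets, where 1.4% of all probe sets passed in these pairs alone. Groups without overlap made up 2.89% of all probe sets, and 2 of the 62 here, the other being PDK4.

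The liver subunit PFKL had signals of 361, 440 and 801 in HZ and of 365, 480 and 928 in RZ, with a difference of -0.10 ± 0.16 (SE, adjusted p = 0.781). The muscle subunit PFKM had signals of 56.3, 112 and 131 in HZ and of 75.6, 99.9 and 118 in RZ, with a difference of 0.02 ± 0.16 (SE, adjusted p = 0.96). Both overlapped fully between the zones. The other 2 PFKM probe sets, both dim, gave -0.05 and -0.34 and did not pass.

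Within pairs, the difference of PFKP lay below that of PFKL by 1.26 ± 0.21 (SE) on the log2 scale and below that of PFKM by 1.38 ± 0.16. Both held in 6 of 6 pairs, and both gave the smallest two-sided p that an exact sign-flip test over 6 pairs allows, 0.03125. Across the 9 such comparisons of genes sharing an enzyme step, the adjusted exact p was 0.0938 for each, so neither passed. With 6 pairs, an adjusted exact p under 0.05 was possible only if most of the 9 comparisons reached 0.03125. Not passing therefore does not show that the subunits changed alike.

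**Figure D2:**
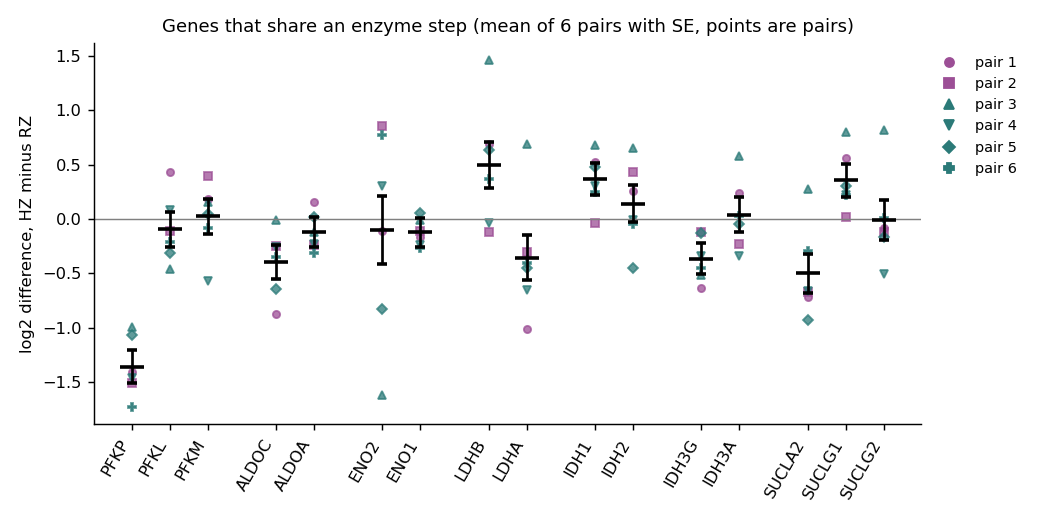
Log2 difference, HZ minus RZ, of genes that share an enzyme step, with the 6 pairs as symbols and the mean with its standard error in black. PFKP stands at -1.36 beside PFKL at -0.10 and PFKM at 0.02, and LDHB stands at 0.50 beside LDHA at -0.36.

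The middle of glycolysis splits the sugar and makes the first ATP. The aldolases gave -0.12 ± 0.14 (ALDOA) and -0.40 ± 0.16 (ALDOC, SE, adjusted p = 0.172), and ALDOC was lower in HZ in 6 of 6 pairs. The triosephosphate isomerase TPI1 gave -0.13 ± 0.14 and the phosphoglycerate kinase PGK1 -0.08 ± 0.15. None of these 4 genes passed.

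GAPDH, the dehydrogenase of this stretch and a common standard for RNA measurements, had signals of 6934, 8947 and 11835 in HZ and of 5021, 7603 and 10731 in RZ. Its difference was 0.23 ± 0.15 (SE, adjusted p = 0.428), higher in HZ in 5 of 6 pairs. The 3 control probe sets along its transcript gave 0.04 ± 0.18 at the 5′ part, 0.22 ± 0.10 in the middle and 0.45 ± 0.07 at the 3′ part (SE). At the 3′ part every pair was higher in HZ, from 0.24 to 0.69 (exact sign-flip p = 0.03125, the smallest possible; adjusted exact p = 0.0833 over 8 control measures). The log2 ratio of the 3′ to the 5′ part was 1.46 on HZ-3 and 1.21 on HZ-4, and between -0.20 and 0.50 on the other 10 arrays. For actin, the other control, the log2 ratio of the 3′ to the 5′ part averaged 3.03 ± 0.69 in HZ and 2.34 ± 0.45 in RZ (SD, n = 6 each). It was higher in HZ in 5 of 6 pairs, by 0.70 ± 0.26 (SE, exact sign-flip p = 0.0625, adjusted exact p = 0.125 over the 8 measures). The widest pair differences for actin were 1.55 in pair 1 and 1.32 in pair 4, so a higher ratio in HZ was not limited to pairs 3 and 4. The part of these ratios in the differences of other genes was not tested. Without pairs 3 and 4 the falls of HK1, PFKP, PGAM1, PKM and PDK4 were -0.88, -1.43, -0.61, -0.84 and -1.09. Of these, PFKP passed with the 4 remaining pairs (adjusted p = 0.0414), and the other 4 had an adjusted p of 0.0597 to 0.114.

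**Figure D3:**
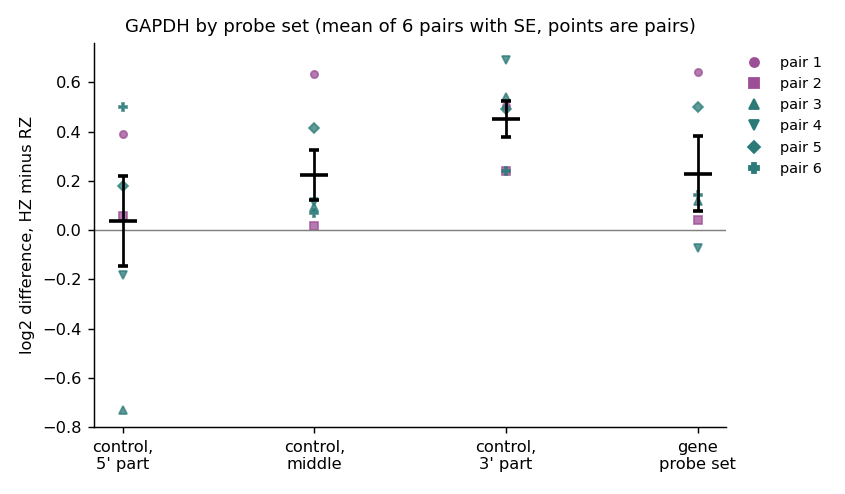
Log2 difference, HZ minus RZ, of GAPDH at its 3 control probe sets, from the 5′ to the 3′ part, and at its gene probe set, with the 6 pairs as symbols and the mean with its standard error in black. The mean goes from 0.04 at the 5′ part to 0.45 at the 3′ part, where all pairs lie above 0.

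In lower glycolysis PGAM1, the mutase that moves the phosphate of phosphoglycerate, had signals of 1699.6, 2801 and 4182 in HZ and of 3789.9, 4139 and 5896 in RZ. The highest HZ array belonged to pair 6, whose RZ array was also the highest, and it was the 1 HZ array above the lowest RZ array. PGAM1 fell by 0.65 ± 0.16 (SE, limma adjusted p = 0.0428), a 1.57-fold lower level seen in 6 of 6 pairs. The call was a narrow one. It held without pair 3 (-0.72, adjusted p = 0.0401) and was lost without pair 1, 2, 4, 5 or 6, with differences of -0.70 to -0.55 and an adjusted p of 0.0653 to 0.123.

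Enolase makes phosphoenolpyruvate. The common enolase ENO1 gave -0.12 ± 0.13 (SE, adjusted p = 0.652). ENO2, the enolase known from neurons, was dim, with signals of 5.42 to 54.8 in HZ and of 4.76 to 49.9 in RZ, and gave -0.10 ± 0.31 with pairs from -1.62 to 0.86.

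Pyruvate kinase ends glycolysis and makes its last ATP. PKM, its gene in most tissues outside liver and red cells, had signals of 592, 2898 and 4156 in HZ and of 1445, 4524 and 6398 in RZ. The arrays of pairs 1 and 2 were low in both zones, at 592 and 1047 in HZ and at 1445 and 1795 in RZ, while no array of the other pairs was below 2014. Within each pair the HZ array was the lower one, by 0.19 in pair 3 and by 1.26 in pair 1. PKM fell by 0.77 ± 0.17 (SE, limma adjusted p = 0.0288), a 1.71-fold lower level, with -1.02 for pairs 1 and 2 against -0.65 for the other 4. The fall rests on the pairing, since without the pair as a block the adjusted p was 0.509 for PKM, 0.171 for HK1 and 0.107 for PGAM1. PKM also passed without pair 3 (-0.89, adjusted p = 0.0226) and did not pass without any other single pair (-0.81 to -0.68, adjusted p = 0.0646 to 0.0920). The probe set is not assigned to the M1 or M2 splice form here.

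**Figure D4:**
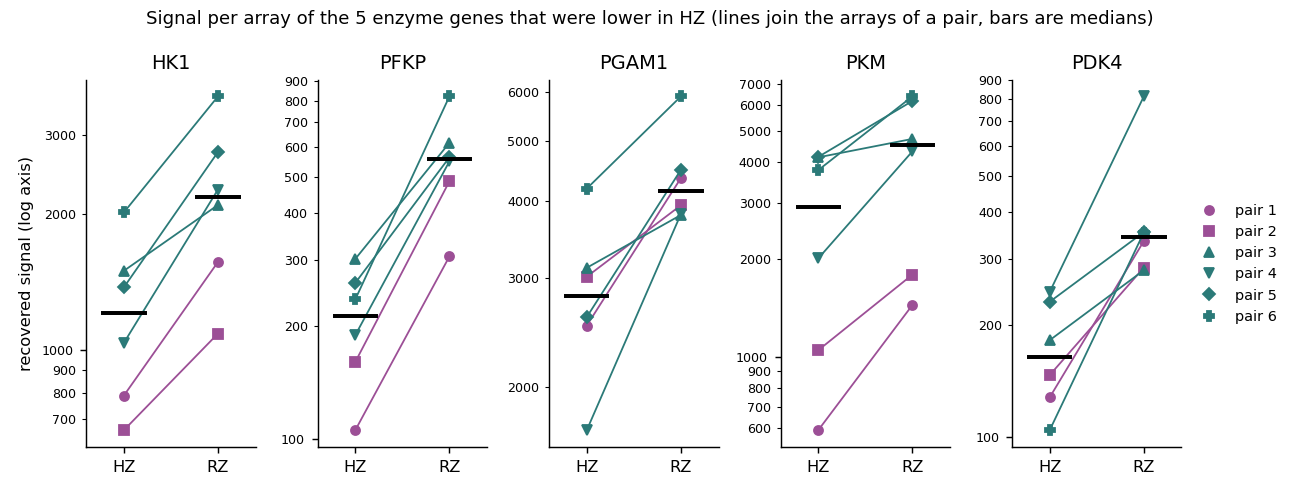
Recovered signal on each array, on a log axis, of the 5 genes that fell, with HZ at the left and RZ at the right of each panel. Lines join the arrays of a pair and black bars are medians. Every line goes up to RZ, and the HZ and RZ ranges are apart for PFKP and PDK4 but overlap for HK1, PGAM1 and PKM.

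Lactate dehydrogenase interconverts pyruvate and lactate as a tetramer of A and B subunits. The A subunit gene LDHA, at its brightest probe set, had signals of 3119, 4846 and 8304 in HZ and of 4933, 6361 and 7239 in RZ. It gave -0.36 ± 0.21 (SE, adjusted p = 0.364) and was lower in HZ in every pair but pair 3. Its other 2 probe sets gave -0.09 ± 0.20 and 0.49 ± 0.21 (adjusted p = 0.853 and 0.207), so the 3 probe sets did not share a direction. The B subunit gene LDHB had signals of 2247, 3042 and 4913 in HZ and of 1763, 2313 and 3080.2 in RZ, with a difference of 0.50 ± 0.21 (SE, adjusted p = 0.203). In each of the 6 pairs the LDHB difference was above that of LDHA at its brightest probe set, by 0.85 ± 0.21 (SE) on average and by 0.19 to 1.70 (exact sign-flip p = 0.03125, the smallest possible; adjusted exact p = 0.0938 over the 9 comparisons). This comparison depends on the LDHA probe set, since the third of them differed from LDHB by almost nothing on average, at 0.49 against 0.50.

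Over glycolysis as listed, 4 of the 16 measured genes (25%) fell and 12 did not pass. Of all named genes 3.56% fell, and of those with a mean signal of at least 64, 4.42%. On the wider list of other glycolysis and gluconeogenesis enzymes 1 of 12 measured genes (8.33%), PCK2, fell. The lists were chosen with earlier results of these data known, so these shares are not an independent test. The median of the 16 genes was -0.13, with -0.24 for pairs 1 and 2 alone and -0.21 for the other 4 pairs.

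None of the 5 pentose phosphate genes passed, and their median was -0.05. In the oxidative branch, which makes NADPH, the lactonase PGLS gave -0.01 ± 0.15 and the dehydrogenase PGD -0.05 ± 0.14 (SE). In the branch that rearranges sugars, the transketolase TKT gave -0.19 ± 0.14 and the transaldolase TALDO1 -0.32 ± 0.16 (adjusted p = 0.486 and 0.270). RPIA, the isomerase that makes ribose 5-phosphate, had the highest value of the 39 genes. Its signals were 379, 639 and 1012 in HZ and 257, 451 and 672 in RZ, a difference of 0.54 ± 0.19 (SE, adjusted p = 0.124) that was positive in every pair but pair 2. Its other probe set gave 0.15 ± 0.21.

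Pyruvate enters the TCA cycle through the pyruvate dehydrogenase complex, which PDK kinases switch off by phosphorylation and PDP phosphatases switch on again. PDK4, a kinase gene known to be induced by fasting and by fatty acids, had signals of 104, 164 and 244.5 in HZ and of 279, 343 and 814 in RZ at its brightest probe set. All HZ arrays lay below all RZ arrays. PDK4 fell by 1.10 ± 0.19 (SE, limma adjusted p = 0.0121), a 2.15-fold lower level, and passed without any 1 of the pairs (-1.21 to -0.99). The other 2 probe sets fell as well, by 0.998 ± 0.24 and 1.11 ± 0.21 (SE, adjusted p = 0.0416 and 0.0176). One of them gave 0.03 in pair 2 and was negative in the other pairs. Pairs 1 and 2 gave -1.08, and pairs 3 to 6 gave -1.11.

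The opposing phosphatase PDP1 was not on the list of 43 genes but on a wider list of the same pathways. Its signals were 955, 1894 and 3013 in HZ and 374, 467 and 504 in RZ, with no overlap. PDP1 rose by 1.97 ± 0.22 (SE, limma adjusted p = 0.00204), a 3.92-fold higher level in 6 of 6 pairs, from 1.06 in pair 2 to 2.96 in pair 1. Its other probe set, which was dim, rose by 1.39 ± 0.29 (adjusted p = 0.0250) and gave -0.01 in pair 3. Without pairs 3 and 4 the difference was 1.99, with an adjusted p of 0.0540. Of the other kinases, PDK2 gave 0.40 ± 0.19 and PDK3 0.37 ± 0.21 (SE, adjusted p = 0.243 and 0.338), each higher in HZ in 4 of 6 pairs. The kinase PDK1 and the phosphatase PDP2 were on the wider list too but were not measured.

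**Figure D5:**
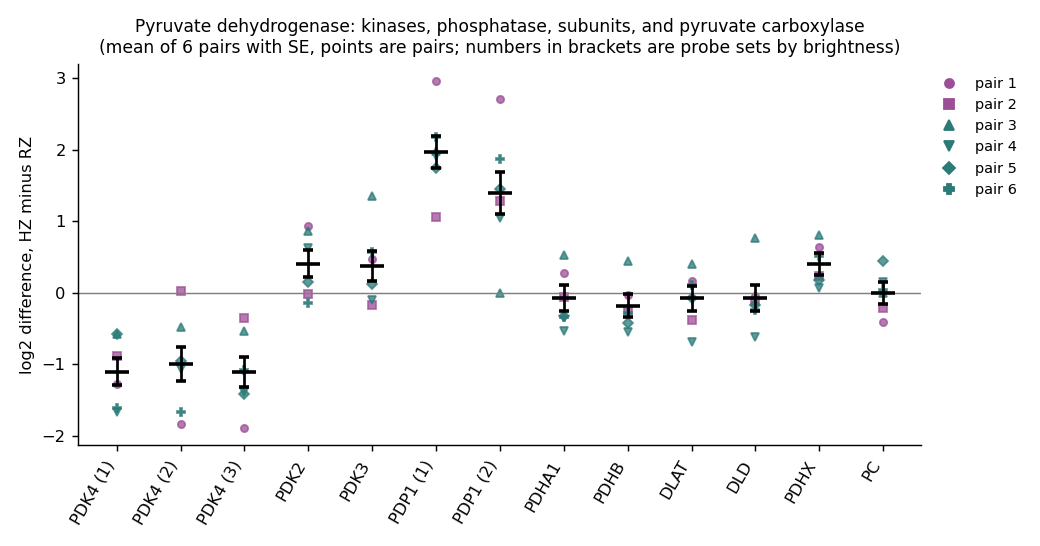
Log2 difference, HZ minus RZ, of the measured kinases, phosphatase and subunits of pyruvate dehydrogenase and of pyruvate carboxylase, with the 6 pairs as symbols and the mean with its standard error in black. The 3 PDK4 probe sets lie near -1, the 2 PDP1 probe sets stand at 1.97 and 1.39, and PDHA1, PDHB, DLAT and DLD lie near 0.

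The subunits of the complex itself did not pass. PDHA1 and PDHB of the decarboxylase gave -0.07 ± 0.18 and -0.18 ± 0.16, DLAT, the acetyltransferase, -0.08 ± 0.17, and DLD, the dehydrogenase shared with other complexes, -0.07 ± 0.19 (SE). Their other probe sets ranged from -0.37 to 0.02. In pair 3 all 4 subunit genes were higher in HZ, and in pair 4 all 4 were lower. PDHX, which anchors DLD in the complex, gave 0.40 ± 0.15 (adjusted p = 0.157) and was higher in HZ in 6 of 6 pairs. PC, the carboxylase that refills the cycle with oxaloacetate, gave 0.0012 ± 0.15, with its other probe sets at 0.07 and 0.17.

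None of the 12 TCA cycle genes passed, and their median was -0.04. Citrate synthase (CS) gave 0.02 ± 0.15 (SE), with 0.0044 at its other probe set. ACO1, the cytosolic aconitase that also serves as an iron sensor, gave -0.40 ± 0.15 (adjusted p = 0.147). The isocitrate dehydrogenases that make NADPH gave 0.37 ± 0.15 (IDH1, in the cytosol) and 0.14 ± 0.17 (IDH2, in mitochondria). The other 2 IDH1 probe sets gave 0.10 and 0.03. Of the mitochondrial enzyme that makes NADH, the catalytic subunit IDH3A gave 0.04 ± 0.16 and the subunit IDH3G -0.37 ± 0.14, which was lower in HZ in 6 of 6 pairs (adjusted p = 0.162). The other IDH3A probe set gave -0.19 ± 0.17, the opposite sign.

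OGDH, the decarboxylase of 2-oxoglutarate, had signals of 52.7, 138 and 279 in HZ and of 77.2, 197 and 314 in RZ. It gave -0.43 ± 0.14 (SE, adjusted p = 0.108), lower in HZ in 6 of 6 pairs. Succinyl-CoA ligase pairs the common alpha subunit of SUCLG1 with a beta subunit that uses ADP (SUCLA2) or GDP (SUCLG2). SUCLG1 gave 0.35 ± 0.15, SUCLA2 -0.50 ± 0.18 and SUCLG2 -0.01 ± 0.18 (SE, adjusted p = 0.206, 0.136 and 0.987). SUCLA2 passed without pair 3, the 1 pair in which it was higher in HZ (-0.66, adjusted p = 0.0415), and its other, dim probe set gave -0.19. The difference of SUCLG2 lay below that of SUCLG1 by 0.36 ± 0.12 (SE) and did so in 5 of 6 pairs (exact sign-flip p = 0.0625, adjusted exact p = 0.141). Fumarase (FH) gave -0.17 ± 0.17 and the mitochondrial malate dehydrogenase MDH2 -0.07 ± 0.14. Their other probe sets gave -0.25 and 0.07, so the 2 of MDH2 differed in sign.

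The other comparisons of genes sharing a step did not pass either. ALDOC minus ALDOA gave -0.27 ± 0.19, ENO2 minus ENO1 0.02 ± 0.44, IDH2 minus IDH1 -0.23 ± 0.19, IDH3G minus IDH3A -0.41 ± 0.20 and PFKM minus PFKL 0.12 ± 0.20 (SE, n = 6 pairs), with adjusted exact p-values between 0.281 and 0.938.

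The wider lists around these pathways held 76 genes, 55 of them measured. Besides PDP1, ME3 rose and PCK2 and ME1 fell, and 51 did not pass. These 4 are 7.27% of the measured genes, close to the 7.73% of all named genes that passed. PCK2, which makes phosphoenolpyruvate from oxaloacetate in mitochondria, had signals of 136, 235 and 394 in HZ and of 234, 543 and 817 in RZ. It fell by 1.04 ± 0.14 (SE, limma adjusted p = 0.00495), a 2.06-fold lower level in 6 of 6 pairs, and passed without any 1 of the pairs. Without the pair as a block its adjusted p was 0.0868, and without pairs 3 and 4 it was 0.0543.

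The malic enzymes turn malate into pyruvate. The cytosolic ME1, a source of NADPH for lipid synthesis, had signals of 859, 1628 and 2400.1 in HZ and of 2155, 2803 and 3587 in RZ. It fell by 0.84 ± 0.21 (SE, adjusted p = 0.0444), and its other probe set fell by 0.72 ± 0.18 (adjusted p = 0.0488). The fall of ME1 passed without pair 2 (-0.96, adjusted p = 0.0464) and not without any other single pair (-0.89 to -0.66, adjusted p up to 0.126). Without the pair as a block its adjusted p was 0.0625, without pairs 3 and 4 it was 0.178, and it passed in 3 of 8 other settings. The mitochondrial ME3 had signals of 76.6, 105 and 130.2 in HZ and of 34.8, 52.2 and 72.3 in RZ, with no overlap. It rose by 0.85 ± 0.16 (SE, adjusted p = 0.0162), although its 2 dimmer probe sets gave 0.50 and -0.0011. Without pair 1, 4 or 5 ME3 gave 0.80, 0.84 and 0.83 and did not pass (adjusted p = 0.0574, 0.0527 and 0.0590), nor did it pass without pairs 3 and 4 (0.75, adjusted p = 0.103). ME2, the other mitochondrial malic enzyme, gave 0.85 ± 0.22 (adjusted p = 0.0559).

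Among 7 measured carriers of glucose, lactate and pyruvate, 0 passed in limma, with 1 higher and 1 lower (14.3% each) at an unadjusted p under 0.05. Of all named genes 12.4% were higher and 12.6% lower at that p. The glucose carrier SLC2A1 gave -0.59 ± 0.20 (SE, adjusted p = 0.126) and the lactate carrier SLC16A1 0.55 ± 0.20 (adjusted p = 0.144). Of 9 genes of glycogen metabolism 0 passed, with 3 higher (33.3%) and 2 lower (22.2%) at an unadjusted p under 0.05. The glycogen phosphorylases went different ways, at -0.51 ± 0.14 for PYGL and 0.43 ± 0.14 for PYGB (adjusted p = 0.0630 and 0.103), and a dimmer PYGL probe set fell by 0.58 (adjusted p = 0.0499). GYG1, which primes glycogen, gave 0.66 ± 0.18 and the branching enzyme GBE1 -0.56 ± 0.18 (adjusted p = 0.0590 and 0.0978). PFKFB2, which makes the activator of phosphofructokinase, gave 0.44 ± 0.13 (adjusted p = 0.0880), and 1 of its 2 dim further probe sets rose by 0.71 (adjusted p = 0.0299). PFKFB3, of the same family, gave -0.27 ± 0.16 (adjusted p = 0.372) and was lower in HZ in 5 of 6 pairs. PFKFB1 and PFKFB4, both dim, gave 0.16 and -0.22 and did not pass. ACLY, which makes acetyl-CoA from citrate, gave -0.59 ± 0.17 and the transaminase GOT1 -0.62 ± 0.16 (adjusted p = 0.0683 and 0.0555), both lower in HZ in 6 of 6 pairs. GLUD1, which makes 2-oxoglutarate from glutamate, had probe sets of opposite sign, with -0.35 ± 0.16 (adjusted p = 0.229) at the brightest and a rise of 0.70 ± 0.16 (adjusted p = 0.0370) at a dimmer one.

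The pairs differed in how the 39 genes moved as a set. Their median difference was -0.11, -0.21, 0.12, -0.35, -0.14 and -0.21 in pairs 1 to 6, beside 0.02, -0.13, 0.18, -0.09, 0.04 and -0.07 for all named genes. In the 39 genes pair 3 was the 1 pair with a positive median and pair 4 had the lowest, and among all named genes the medians of pairs 1, 3 and 5 were positive. Pairs 1 and 2 also stand apart in how coarsely the ratios of dim probe sets are stepped, with steps of 0.0237 to 0.0318 against 0.00884 to 0.0110 in pairs 3 to 6. No label names a batch. The direction was the same in both sets of pairs for 29 of the 39 genes (74.4%), beside 68.5% of all named genes. Among named genes with a mean signal of at least 64 it was the same for 72.5%. A term for a different zone effect in the 2 sets had an adjusted p of 0.999 in each of the 62 probe sets and an unadjusted p of at least 0.0901, and over all probe sets 0.00833% passed it.

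The fractions carried their labels' markers in part. Of 8 hypertrophic zone markers IHH, MMP13, ALPL, PTH1R and MEF2C rose, and of 4 measured reserve zone markers 4 fell. The summed signal of all 8, COL10A1, SPP1 and IBSP included, was 54829 to 84368 in HZ and 42664 to 65257 in RZ. Summed signals here and below cover every measured marker of a list, passed or not. COL10A1, the collagen that defines hypertrophic chondrocytes, overlapped between the zones in signal and gave 0.11 ± 0.16 (SE, adjusted p = 0.755), and SPP1 and IBSP gave 0.31 and 0.14 without passing (adjusted p = 0.215 and 0.715). The 6 measured genes common to chondrocytes were bright in both zones, and 0 of them passed. Markers of other cell types moved too. Of 6 measured macrophage markers CSF1R, C1QA, C1QB and C1QC rose. CD68 gave 0.14 and CD14 -0.81 (adjusted p = 0.643 and 0.103), and CD14 was lower in HZ in 5 of 6 pairs. The summed signal of the 6 was 1282 to 2539 in HZ and 954 to 2081 in RZ. Its median was 1529 in HZ and 1616 in RZ, and it was higher in HZ in 4 of 6 pairs. Of 3 measured osteoclast markers ACP5 and CTSK rose, and the summed signal of the 3 was 7104 to 9958 in HZ and 2272 to 5645 in RZ. Most of that sum was CTSK, with a mean of 6683 in HZ and 2522 in RZ. MMP9 gave 0.97 (adjusted p = 0.248) and was higher in HZ in 3 of 6 pairs. Of 6 T and NK cell markers CD2 and NKG7 fell, and of 7 granulocyte markers CATHL1 fell. The summed signal of the 6 was 200.1 to 366 in HZ and 358 to 781 in RZ. That of the 7 was 312 to 2261 in HZ and 546 to 10307 in RZ. Of 6 fibroblast and perichondrium markers FBN1 and PDGFRA fell, by 1.46 and 1.01 (adjusted p = 0.0035 and 0.0235), with a summed signal of 11573 to 16065 in HZ and 13078 to 17179 in RZ. Of 6 endothelial markers PECAM1 fell by 1.06 (adjusted p = 0.0279), with signals of 83.3 to 246 in HZ and 232 to 480 in RZ. CDH5, KDR and TEK gave -0.11, -0.03 and -0.32, VWF and EGFL7 gave 0.11 and 0.08, and none of these passed. The summed signal of the 6 was 205 to 530.4 in HZ and 485 to 727 in RZ. PECAM1 was the brightest of them, with a mean of 163 in HZ and 350 in RZ, so the sum largely follows this gene. Of 3 measured osteoblast markers 0 passed in limma, with COL1A1 and COL1A2 lower at an unadjusted p under 0.05, and their summed signal was lower in HZ in 6 of 6 pairs (1063 to 4344 in HZ, 1383 to 17688 in RZ), at -1.05 and -1.12 for these 2 genes (adjusted p = 0.105 and 0.0515). Of 5 measured skeletal muscle markers 0 passed, and their summed signal was higher in HZ in 5 of 6 pairs (2252 to 7075 in HZ, 1268 to 5255 in RZ). Of 5 measured red cell markers 0 passed, with a summed signal higher in HZ in 2 of 6 pairs. The markers under a mean signal of 64 in these lists were CD3G, CD2, GZMB, VWF, KDR, EGFL7, POSTN, MYH1, TNNT3, PYGM, HBB, HBA, ALAS2 and SLC4A1. The part of these cell types in the differences of the enzyme genes was not tested.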

How the data were processed

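Biotin-labelled RNA of 12 samples was hybridised to one-colour arrays. The deposited values are ratios for 24128 probe sets on each array. How arrays were scanned, summarised and normalized is not given in the sources used here. From the values, 21901 probe sets were divided by their own median over the arrays and 2227 by 1 fixed value. The spacing of the ratios showed a smallest unit per array, which gave each divisor and hence a signal for 24128 probe sets (largest distance from a whole number 0.0754 of that unit). The scale assumes that this unit stands for a signal of 0.1. No source states this. The planned design had assumed intensities.

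The 24016 probe sets other than 112 controls were fitted as log2(signal + 16) with limma 3.58.1 in R 4.3.3 (pair as a block, Benjamini-Hochberg over all, threshold 0.05). No filter on dim probe sets was applied, and 52 of the 62 enzyme probe sets had a mean signal of at least 64. The pair is part of the series description. Deviations of same-numbered arrays from their zone means correlated at 0.124 to 0.447. No such correlation was computed for arrays with different numbers, so these values do not test the pairing. Symbols came from the platform annotation, with 13292 probe sets having 1 symbol, 86 several and 10638 none. All 39 gene identifiers matched RefSeq (ARS-UCD2.0), and 0 symbols changed. Every enzyme gene is named with its brightest probe set. Members of the wider lists are named where they passed, and the other wider-list genes in the text were chosen after their values were seen. Genes sharing a step were compared by exact sign-flip tests over 6 pairs. Scripts were tested on simulated data. The enzyme genes, lists and tests were chosen with earlier results of these data known.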

Additional observations from a re-analysis of the deposited data

Results flagged for a closer look

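In 78 sets of 6 arrays, 1 per enzyme gene and zone, 2 held an array far from the others by Dixon's test, and chance flags about 1 in 20 such sets. PFKL on RZ-6 had a signal of 928, against a median of 480 in RZ, and its gap to the nearest array was 0.659 of the range. PDK4 on RZ-4 had a signal of 814, against a median of 343 in RZ, with a gap of 0.784 of the range, and without pair 4 PDK4 still passed.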

How the results depend on the processing

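No enzyme probe set rose under any alternative, and none of the genes that fell turned its direction. The count that fell, 7 with the main settings, was 7 with a constant of 64, with arrays centred on the median and with a mean signal of at least 64, 6 after quantile normalization, 3 with a constant of 1 and 3 with the deposited ratio. It was 2 without the pair as a block and 1, PFKP, without pairs 3 and 4, an alternative that leaves 4 pairs. With 1 pair left out in turn it lay between 3 and 7. Centring on the median could hardly alter the count, since every array's median was already 96.7. Over all probe sets, 782 rose and 712 fell. These counts were 505 and 326 without the pair as a block, 368 and 215 with a constant of 1, 1017 and 1120 with a constant of 64, 315 and 163 with the deposited ratio, 1097 and 1308 with the filter, 91 and 48 without pairs 3 and 4, and 334 to 650 and 223 to 895 with 1 pair left out. With a constant of 1 the adjusted p was 0.0746 for PKM and 0.0953 for PGAM1, and with the deposited ratio 0.0804 and 0.0996. The cause was not tested.

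Genes near 0 turned sign. PC gave -0.0020 with a constant of 1, -0.0022 with the deposited ratio and -0.034 without pairs 3 and 4. Quantile normalization gave PGD 0.017, PGLS 0.053 and SUCLG2 0.047. Without pairs 3 and 4, CS gave -0.016, ENO2 0.17, PGLS 0.035 and IDH3A -0.0025. The median over probe sets gave PFKM -0.051, IDH3A -0.078 and MDH2 0.0013. With 1 pair left out the ranges were -0.041 to 0.094 for CS, -0.18 to 0.041 for DLAT, -0.24 to 0.034 for DLD, -0.30 to 0.20 for ENO2, -0.070 to 0.11 for IDH3A, -0.13 to 0.0048 for MDH2, -0.088 to 0.083 for PC, -0.20 to 0.018 for PDHA1, -0.053 to 0.14 for PFKM, -0.086 to 0.045 for PGLS and -0.17 to 0.091 for SUCLG2. ENO2, read by 1 dim probe set, had the widest error of the 39 genes.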
